A study of Rattus norvegicus with 10 samples.

Results

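Branched-chain amino acid breakdown was followed through 10 genes in white adipose tissue (WAT) of 10 male rats, 13 weeks old, with 1 expression array per animal. The genes were Bcat2, Bckdha, Bckdhb, Dbt, Ivd, Mccc1, Acadsb, Hibadh, Aldh6a1 and Pcca, a list chosen by name. Every probe set that the array's annotation gives to one of these symbols alone was taken. That gave 13 probe sets of the 31042 that are no array controls, with at least 1 for each of the 10 genes. For 30 days, 5 rats (the noodle group) received feed of which instant noodle made up 30% by weight and in which fat supplied 26% of the energy. The other 5 (the control group) received, per the labels, that feed minus the seasonings, and whether it still held the noodle is not stated. The labels give paired feeding of both diets at about 60 g per kg body weight per day, a duration of 4 weeks in that field, free access to water and a 12 hour light and dark cycle. The sources used here give neither the strain nor the fat depot nor which rats formed a pair.

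The extraction text of the labels names a brain sample, while the tissue field gives WAT. On the log2 scale of the deposited values, the median level was 11.5 for the 19 adipocyte markers on the array. For 14 brain markers it was 5.72, and for all probe sets 6.18. Array medians lay between 6.17 and 6.18 and correlations between arrays between 0.993 and 0.998. Whole tissue was measured, so fewer cells of a type and less RNA per cell cannot be told apart. The labels give each array as a separate animal, and p-values measure the spread between these 10 animals only.

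Leucine, isoleucine and valine share the first steps of their breakdown. The mitochondrial aminotransferase BCAT2 removes the amino group, and the branched-chain ketoacid dehydrogenase complex then commits the carbon skeleton to oxidation. After that step the pathway splits into a branch for each amino acid, which ends in acetyl-CoA, acetoacetate or propionyl-CoA. Fat cells use this carbon for energy and for fatty acid synthesis, and the pathway is known to be strongly induced when adipocytes differentiate.

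The sequence just upstream of the annotated start is shown for 3 of the genes whose levels are described below. Ivd and Bckdhb formed the least correlated pair across animals, and Hibadh, of the valine branch, was correlated with both. Each line gives 250 bases 5′ to 3′ on the gene's strand, ending at the base before the start, from RefSeq's annotation of build GRCr8. Ivd lies at chr3:126305334-126305583 on the + strand, Bckdhb at chr8:93725027-93725276 on the + strand and Hibadh at chr4:83077820-83078069 on the - strand. Capitals mark CCAAT and its reverse complement ATTGG, the letters of the CCAAT box.
Ivd: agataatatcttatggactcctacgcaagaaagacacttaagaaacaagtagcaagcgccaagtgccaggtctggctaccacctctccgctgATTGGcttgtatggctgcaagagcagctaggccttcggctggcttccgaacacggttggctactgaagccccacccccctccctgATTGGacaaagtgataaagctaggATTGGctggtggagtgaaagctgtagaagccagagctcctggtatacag
Bckdhb: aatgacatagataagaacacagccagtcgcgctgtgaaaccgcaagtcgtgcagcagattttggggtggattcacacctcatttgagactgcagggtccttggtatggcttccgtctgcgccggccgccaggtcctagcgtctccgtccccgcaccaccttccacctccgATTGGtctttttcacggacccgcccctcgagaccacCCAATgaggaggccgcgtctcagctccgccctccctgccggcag
Hibadh: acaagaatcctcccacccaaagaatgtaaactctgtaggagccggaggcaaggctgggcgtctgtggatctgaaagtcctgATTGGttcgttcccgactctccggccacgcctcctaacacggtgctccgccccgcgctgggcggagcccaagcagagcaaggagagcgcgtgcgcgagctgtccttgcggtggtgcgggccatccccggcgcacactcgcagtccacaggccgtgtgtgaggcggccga

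A promoter entry was matched for 9 of the 10 genes, all but Bckdha. The letters CCAAT, searched on both strands, were found upstream of 7 of the 9: Bckdhb, Dbt, Ivd, Mccc1, Hibadh, Aldh6a1 and Pcca. They are found in 34.0% of the 33469 upstream windows of the same length in the table. Ivd and Aldh6a1 held 3 matches each. The GC box letters GGGCGG were found upstream of 7 of the 9 genes, against 30.5% of all windows, with 5 matches for Acadsb and 0 for Ivd and Aldh6a1. The D-box letters TTATGNAA were found for Aldh6a1 alone, against 3.28% of windows, and the NRF1 letters, GCGCA and GCGC with 1 base between them, for Hibadh alone, against 3.75%. The E-box CACGTG, the ERR half-site AAGGTCA and the DR1 element, a repeat of AGGTCA with 1 base between the copies, were found in 0 of the 9 windows. Their shares of all windows were 5.59%, 3.99% and 0.0508%. Of these patterns, only the half-site and DR1 share letters enough to overlap fully. A match is a description of these letters and no evidence of binding.

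The deposited values split the 13 probe sets into 7 variable and 6 flat ones. Flat means an SD over the 10 arrays of 0.01 or less, and 8.40% of all probe sets lay above that limit. The 7 variable probe sets belong to Bcat2, Bckdhb, Ivd, Mccc1, Hibadh, Aldh6a1 and Pcca, with SDs between 0.0686 for Aldh6a1 and 0.19 for Ivd. The median SD of these 7 was 0.136, against 0.191 for all 2607 variable probe sets. The 6 flat probe sets had SDs between 0.000169 and 0.000356. They include all probe sets of Bckdha, Dbt and Acadsb and the second one of Aldh6a1. The probe sets of Aldh6a1 thus differ in kind, since 1387344_at was variable at a mean level of 9.53 and 1368814_at was flat at 7.97. Just above the limit stood variable Aldh6a1 at 0.0686 and just below it Bckdha 1380557_at at 0.000356, far from it on both sides. How the authors' processing led to such flat values is not given in the sources used here, so differences of flat probe sets are listed but not read as sizes. Levels of different probe sets are not compared with each other.

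Before the results, 2 animals have to be named. Noodle animal 4 was the lowest of its group in 7 of the 7 variable genes, and so was control animal 2 of its group. Control animal 2 was the lowest of all 10 animals in 6 of the 7 genes, and noodle animal 4 was the lowest in Ivd. The mean deviation of the 7 genes from their 10-array means was -0.19 in noodle animal 4 and -0.25 in control animal 2. The other 8 animals lay between -0.05 and 0.11. Differences and correlations of the variable genes are therefore also given without these animals, a choice made after their values were seen. Over all probe sets, the mean correlation to the other arrays was 0.9959 for noodle animal 4 and 0.9961 for control animal 2. The lowest was 0.9948, for control animal 14. Only 8.40% of probe sets were variable, so this measure rests mostly on level differences between probe sets. It cannot show whether these 2 arrays stand apart.

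**Figure D1:**
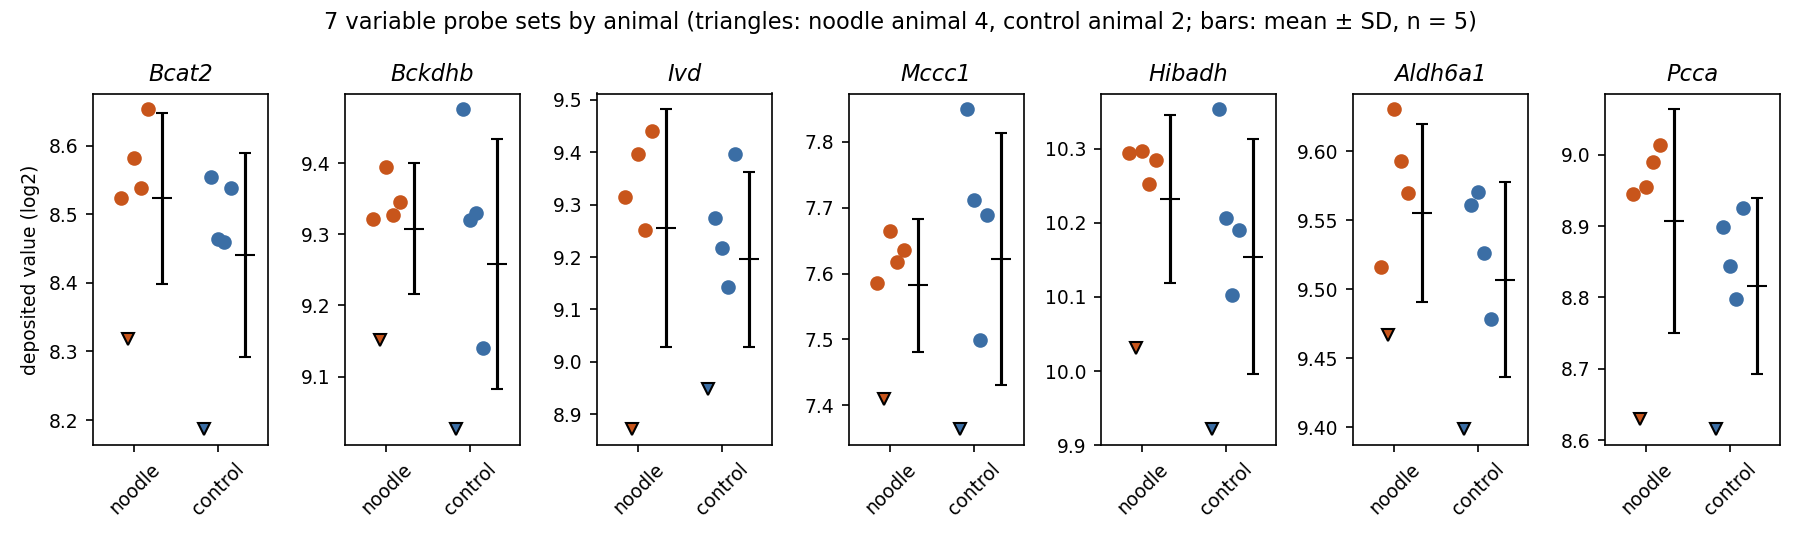
Deposited log2 value (vertical axis, one scale per gene) of the 7 variable probe sets in 5 noodle rats (orange, left) and 5 control rats (blue, right). Triangles mark noodle animal 4 and control animal 2, which are the lowest of their group in 7 of 7 genes, and bars give mean ± SD with n = 5.

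Bcat2 encodes the mitochondrial aminotransferase of the first step. Its probe set 1386928_at stood at 8.52, 8.32, 8.58, 8.54 and 8.65 in noodle animals 1, 4, 7, 10 and 13, against 8.19, 8.55, 8.46, 8.46 and 8.54 in control animals 2, 5, 8, 11 and 14. The groups overlapped, with 2 of 5 noodle animals above every control. Bcat2 averaged 8.52 ± 0.12 in noodle rats and 8.44 ± 0.15 in control rats (SD, n = 5 each). The difference of 0.08 ± 0.08 (SE) log2 units, or 1.06-fold on the deposited scale, did not pass in limma (adjusted p = 0.993). It was 0.13 with noodle animal 4 left out, 0.02 with control animal 2 left out, 0.07 without both and 0.03 with the RNA quality measure described below as a covariate.

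Bckdhb, Bckdha and Dbt encode the E1 beta, E1 alpha and E2 subunits of the ketoacid dehydrogenase complex. Only Bckdhb had a variable probe set, 1370906_at. It stood at 9.32, 9.15, 9.40, 9.33 and 9.35 in noodle animals 1, 4, 7, 10 and 13, against 9.03, 9.48, 9.32, 9.33 and 9.14 in control animals 2, 5, 8, 11 and 14. The noodle values, with an SD of 0.09, lay inside the range of the controls, whose SD was 0.18. The mean difference for Bckdhb was 0.05 ± 0.09 log2 units (SE, limma adjusted p = 0.993). It was 0.09 with noodle animal 4 left out, -0.01 with control animal 2 left out and 0.03 without both. With the RNA quality covariate the Bckdhb difference rose to 0.11. Bckdha was flat at 8.59 (1370897_at) and 6.25 (1380557_at), and Dbt at 8.49 (1373201_at) and 5.99 (1392740_at). Their 4 flat probe sets differed between the diets by -0.000052 to 0.000116 log2 units.

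Ivd and Mccc1 act in leucine breakdown. Ivd encodes isovaleryl-CoA dehydrogenase, and its probe set 1370232_at stood at 9.31, 8.87, 9.40, 9.25 and 9.44 in noodle animals 1, 4, 7, 10 and 13. In control animals 2, 5, 8, 11 and 14 it stood at 8.95, 9.27, 9.22, 9.14 and 9.40. Noodle animal 4 was the lowest of all 10 animals and noodle animal 13 the highest, so the noodle group spanned the controls. The Ivd difference was 0.06 ± 0.12 log2 units (SE, limma adjusted p = 0.995). It was 0.15 with noodle animal 4 left out, -0.003 with control animal 2 left out, 0.09 without both and -0.08 with the RNA quality covariate.

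Mccc1 encodes the biotin-bearing alpha subunit of methylcrotonyl-CoA carboxylase, the enzyme after IVD. Its probe set 1376852_at stood at 7.58, 7.41, 7.66, 7.62 and 7.64 in noodle animals 1, 4, 7, 10 and 13, against 7.36, 7.85, 7.71, 7.50 and 7.69 in control animals 2, 5, 8, 11 and 14. The noodle values lay inside the control range, and the mean was lower in noodle rats for this gene alone among the 7. The Mccc1 difference was -0.04 ± 0.09 log2 units (SE, limma adjusted p = 0.997), and also -0.04 with the RNA quality covariate. The sign was positive when noodle animal 4 (0.003) or control animal 5 (0.02) was left out or arrays were weighted (0.03), while the difference was -0.11 without control animal 2 and -0.06 without both low animals.

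Acadsb encodes the short and branched-chain acyl-CoA dehydrogenase of isoleucine breakdown. Its single probe set 1369526_at was flat at 6.70, with 4 of 5 noodle animals above every control. The difference was 0.000332 ± 0.000084 log2 units (SE, limma adjusted p = 0.96). Its unadjusted limma p of 0.00371 was the only one under 0.05 among the 13 probe sets, or 1 of 13 against 4.77% of all 31042. After quantile normalization or centring of the arrays on their medians, 0 of the 13 were under 0.05, and the share of all probe sets was 0.789% and 0.792%. Array medians lay between 6.1745 and 6.1823, while Acadsb spanned 0.000557 log2 units over the 10 arrays. Centring thus moves the Acadsb values by more than their own spread and cannot show whether this small difference holds. Without noodle animal 4 there were 3, against 4.6% of all, with the flat Aldh6a1 probe set and Pcca added. Without control animal 5 there were 2, against 4.75% of all, with Bckdha 1370897_at added.

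Hibadh and Aldh6a1 encode the hydroxyisobutyrate and methylmalonate semialdehyde dehydrogenases of valine breakdown. Hibadh, probe set 1388118_at, stood at 10.29, 10.03, 10.30, 10.25 and 10.28 in noodle animals 1, 4, 7, 10 and 13. In control animals 2, 5, 8, 11 and 14 it stood at 9.92, 10.35, 10.21, 10.10 and 10.19. The noodle animals other than animal 4 lay close together, and all 5 noodle values lay inside the control range. The Hibadh difference was 0.08 ± 0.08 log2 units (SE, limma adjusted p = 0.993), and also 0.08 with the RNA quality covariate. It was 0.13 with noodle animal 4 left out, 0.02 with control animal 2 left out and 0.07 without both.

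Aldh6a1, probe set 1387344_at, stood at 9.52, 9.47, 9.63, 9.59 and 9.57 in noodle animals 1, 4, 7, 10 and 13, against 9.40, 9.56, 9.57, 9.53 and 9.48 in control animals 2, 5, 8, 11 and 14. Noodle animals 7 and 10 lay above every control, and the groups overlapped. Its difference was 0.05 ± 0.04 log2 units (SE, limma adjusted p = 0.993), and 0.06 with the RNA quality covariate. It was 0.07 with noodle animal 4 left out, 0.02 with control animal 2 left out and 0.04 without both. This gene had the narrowest spread of the 7, with a range of 0.23 over the 10 animals.

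Pcca encodes the alpha subunit of propionyl-CoA carboxylase, which takes up the propionyl-CoA that valine and isoleucine yield. Its probe set 1371963_at stood at 8.95, 8.63, 8.95, 8.99 and 9.01 in noodle animals 1, 4, 7, 10 and 13, against 8.61, 8.90, 8.84, 8.80 and 8.93 in control animals 2, 5, 8, 11 and 14. Thus 4 of 5 noodle animals lay above every control and noodle animal 4 lay near the lowest one. Pcca averaged 8.91 ± 0.16 in noodle rats and 8.82 ± 0.12 in control rats (SD, n = 5 each). The difference of 0.09 ± 0.09 log2 units (SE), or 1.06-fold, did not pass in limma (adjusted p = 0.993). Without noodle animal 4 it was 0.16, without control animal 2 it was 0.04, and with the RNA quality covariate it was 0.03 (limma adjusted p = 0.969). Without both animals it was 0.11, with an unadjusted limma p of 0.0111 in 4 animals per group and an adjusted p of 0.96.

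None of the 13 probe sets passed an adjusted p of 0.05 in limma, as was true of all 31042 (0.0% called). At an unadjusted p under 0.05 there were 0 of the 7 variable probe sets, against 8.13% of all variable ones. The groups were separate in 0 of the 13, against 0.718% of all probe sets and 0.959% of the variable ones. Of the 7 variable genes 6 were higher and 1 was lower in noodle rats, where 44.6% of all variable probe sets were higher. Of the 6 flat ones 5 were higher, where 51.9% of all flat probe sets were. The median difference of the 7 was 0.06 log2 units, against -0.01 over all variable probe sets. The 6 positive signs are not separate observations, because the genes were measured in the same animals and moved together across them. The 95% intervals of the 7 differences ran from -0.25 (Mccc1) to 0.34 (Ivd) log2 units at their outer ends. On the deposited scale the interval was 0.839-fold to 1.13-fold for Mccc1 and 0.859-fold to 1.26-fold for Ivd, while the narrowest, that of Aldh6a1, was 0.969-fold to 1.10-fold. For each gene, changes inside its own interval are compatible with the values of these 5 arrays per group.

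**Figure D2:**
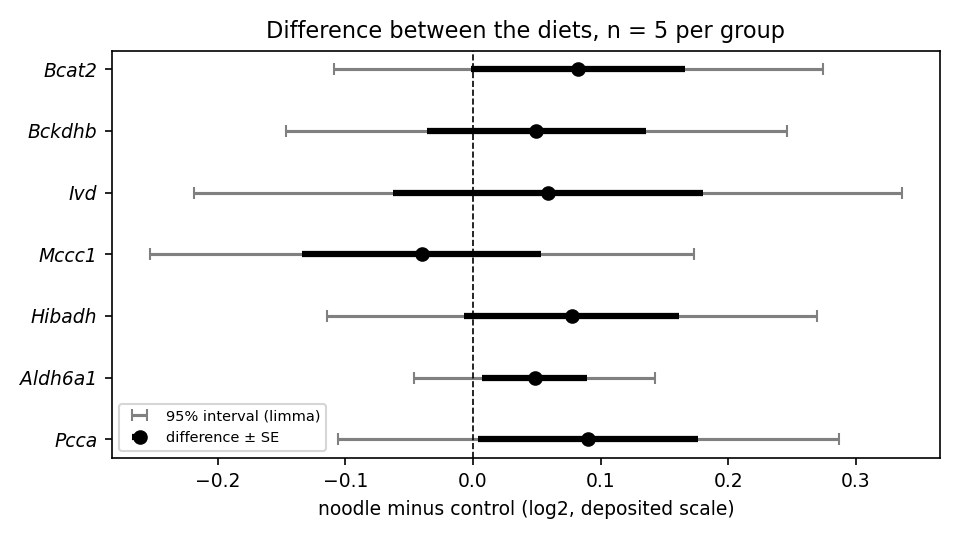
Noodle minus control difference (horizontal axis, log2 on the deposited scale) of the 7 variable genes, with points and thick bars for the difference ± SE and thin bars for the 95% interval from limma, n = 5 per group. Each of the 7 intervals includes 0, and Mccc1 alone has a difference below 0.

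Across the 10 animals the 7 genes were positively correlated in each of their 21 pairs. Pearson's r ranged from 0.59 for Bckdhb and Ivd to 0.95 for Bcat2 and Pcca, with a median of 0.803. The median over all 3396921 pairs of variable probe sets was 0.0409, and 8.75% of those pairs reached an r as high as the lowest of the 21. Among 10 variable genes of the citric acid cycle and pyruvate dehydrogenase, the median r of their 45 pairs was 0.789. Among 13 of fatty acid oxidation it was 0.623 over 78 pairs. A high median r was thus not particular to the 7 breakdown genes. In a permutation test with 100000 resamples, 20 of the 21 pairs had an adjusted p under 0.05 (Benjamini-Hochberg over the 21 pairs), all but Bckdhb and Ivd (adjusted p = 0.0687). By Spearman's rank correlation the 21 values lay between 0.418 and 0.903, and 5 pairs passed. With the mean of each diet group removed, r lay between 0.577 and 0.965 and 19 pairs passed in the exact permutation test within the groups.

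High r values joined Bcat2, Ivd and Pcca, which act at the first step, in leucine breakdown and on propionyl-CoA. For Bcat2 and Pcca r was 0.95 and Spearman's rho 0.855 (permutation p = 0.00006 and 0.00284, adjusted p = 0.00126 and 0.0298). For Ivd and Pcca r was 0.944 and rho 0.83 (permutation p = 0.0003 and 0.00503, adjusted p = 0.00299 and 0.0298). For Bcat2 and Ivd r was 0.918 and rho 0.903 (permutation p = 0.00057 and 0.00074, adjusted p = 0.00299 and 0.0155). In each of the 3 genes, noodle animal 4 and control animal 2 were the 2 lowest animals and noodle animal 13 was the highest. Hibadh was correlated with each of the other 6 at r between 0.813 and 0.918.

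These correlations rest in large part on the 2 low animals. When the 2 animals farthest from the median of the first gene of a pair were left out, the median r was 0.637 and 0 of the 21 pairs passed after adjustment, with 7 under an unadjusted exact permutation p of 0.05. Without noodle animal 4 and control animal 2 the median r was 0.334, the range -0.187 to 0.861 and again 0 pairs passed. Over all pairs of variable probe sets the median r was then 0.0546. The 2 animals were picked from these same values, and a test on 8 animals passes less easily than one on all. Without noodle animal 4 alone 12 pairs passed, and without control animal 2 alone 8. In the remaining 8 animals Bcat2, Ivd and Pcca still had the highest r values, 0.861 for Bcat2 and Ivd, 0.846 for Bcat2 and Pcca and 0.775 for Ivd and Pcca (exact permutation p = 0.00585, 0.00873 and 0.0243, adjusted p = 0.0917, 0.0917 and 0.17). For Bckdhb and Ivd r was -0.187 and for Bckdhb and Pcca -0.003, both below 0 in these 8 animals. Bckdhb was then closest to Aldh6a1, with an r of 0.659 (exact permutation p = 0.0682, adjusted p = 0.296).

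**Figure D3:**
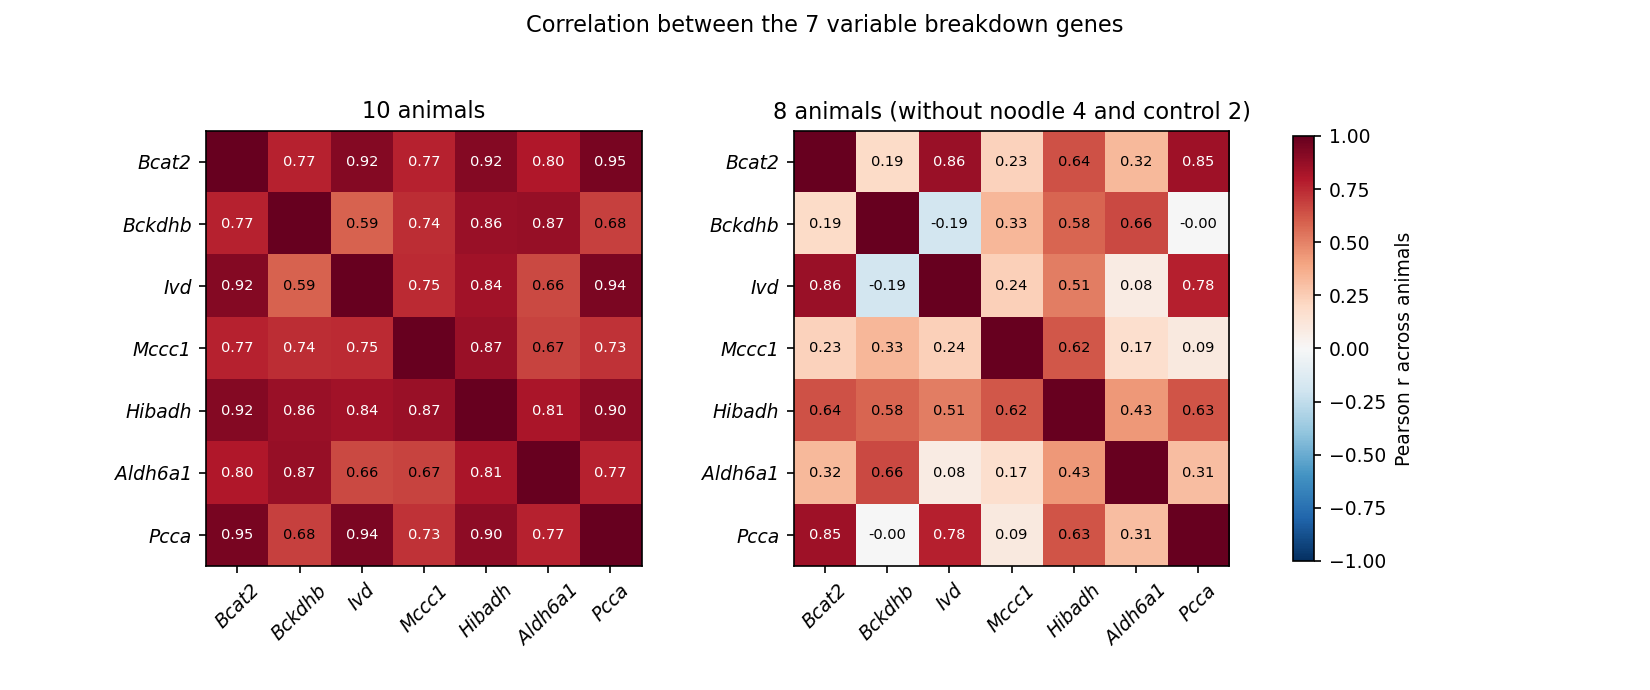
Pearson r between the 7 variable genes across all 10 animals (left) and across 8 animals without noodle animal 4 and control animal 2 (right), on a colour scale from -1 to 1. All 21 pairs are at 0.59 or above on the left, while on the right only the pairs among Bcat2, Ivd and Pcca stay at 0.775 or above.

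**Figure D4:**
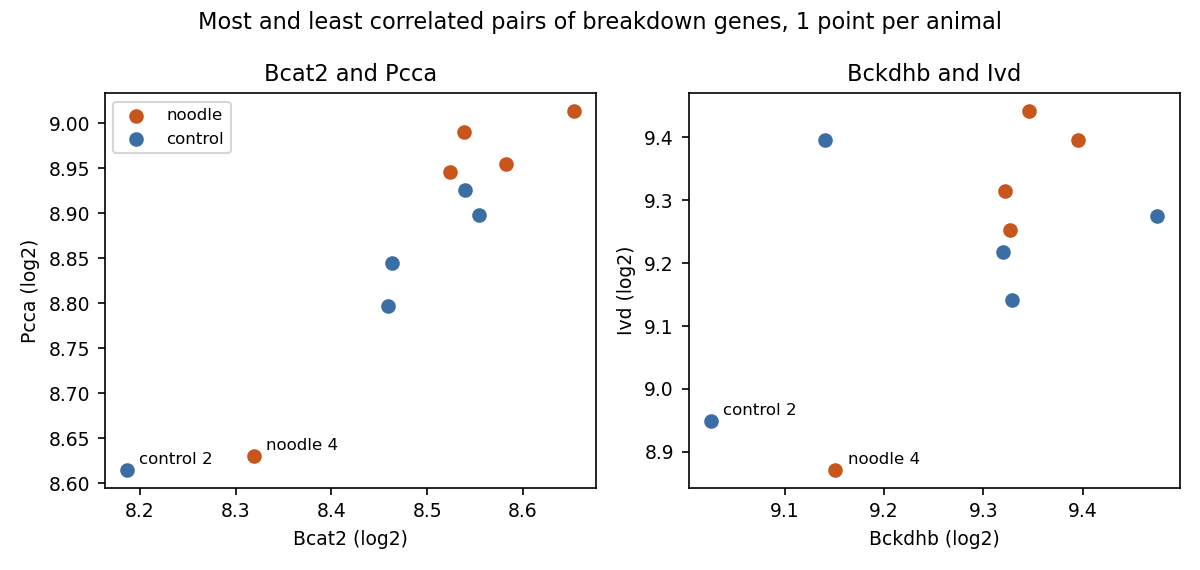
Log2 values of Bcat2 against Pcca (left, r = 0.95) and of Bckdhb against Ivd (right, r = 0.59), 1 point per animal, with noodle rats in orange and control rats in blue. Noodle animal 4 and control animal 2 lie at the lower left in both panels, and in the other 8 animals r is 0.846 in the left panel and -0.187 in the right one.

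As list means, endothelial markers and smooth muscle and pericyte markers stood high in the 2 animals in which these genes stood low. The 6 variable smooth muscle and pericyte markers, of 11 measured, had mean deviations of 0.31 in noodle animal 4 and 0.46 in control animal 2, against -0.19 to 0.02 in the other 8 animals. For the 7 variable endothelial markers, of 11 measured, the values were 0.22 and 0.18, against -0.15 to 0.14. Each of these 13 markers had a negative r with the mean of the 7 genes over 10 animals, from -0.94 for Vwf to -0.20 for Rgs5. Without noodle animal 4 and control animal 2, 9 of the 13 were negative. Vwf then had an r of -0.70 and Egfl7 one of -0.76, while the smooth muscle genes Cnn1 and Actg2 were at -0.07 and 0.16. The largest opposite relation in the endothelial list was that of Vwf, the von Willebrand factor gene, with an r of -0.94 to the mean of the 7 genes over 10 animals. Vwf stood at 7.37 in noodle animal 4 and 7.33 in control animal 2, against 6.94 to 7.18 in the others. Cnn1, the smooth muscle calponin gene, had an r of -0.87 and stood at 6.43 and 6.34, against 5.51 to 5.86. Actg2, the enteric smooth muscle actin gene, stood at 7.15 and 7.37, against 5.74 to 6.50. Emcn, Kdr and Myh11 also stood above the other 8 animals in both. Egfl7, Pecam1, Cldn5, Eng, Tagln, Mylk and Rgs5 did not stand above all of the other 8 in both. Pecam1, for one, stood at 8.77 and 8.84, against 8.49 to 8.95. These values share arrays and animals with the breakdown genes, and their part in the correlations was not tested.

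By diet group, the smooth muscle and pericyte markers ranged from -0.10 to 0.31 in noodle rats and from -0.19 to 0.46 in control rats. The endothelial markers ranged from -0.15 to 0.22 in noodle rats and from -0.11 to 0.18 in control rats. The 12 variable adipocyte markers did not mark both animals: their mean deviation was -0.18 in noodle animal 4 and 0.04 in control animal 2, against -0.11 to 0.21 in the others. Fibroblast markers stood at 0.37 and 0.04 in those 2 animals, macrophage markers at 0.28 and -0.16, mast cell markers at 0.28 and -0.09 and red blood cell markers at -0.45 and 0.04. None of these 4 lists set both animals apart from the other 8. Of the measured skeletal muscle markers 1 was variable, and it was lowest in these animals, at -0.34 and -0.19, against -0.13 to 0.20. Genes of the citric acid cycle and pyruvate dehydrogenase also stood low in both, at -0.22 and -0.13, against -0.10 to 0.21. So did those of fatty acid oxidation, at -0.14 and -0.15, against -0.12 to 0.26. Other genes of branched-chain amino acid breakdown, described below, stood at -0.21 and -0.08, against -0.09 to 0.14. That list set noodle animal 4 apart but not control animal 2.

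**Figure D5:**
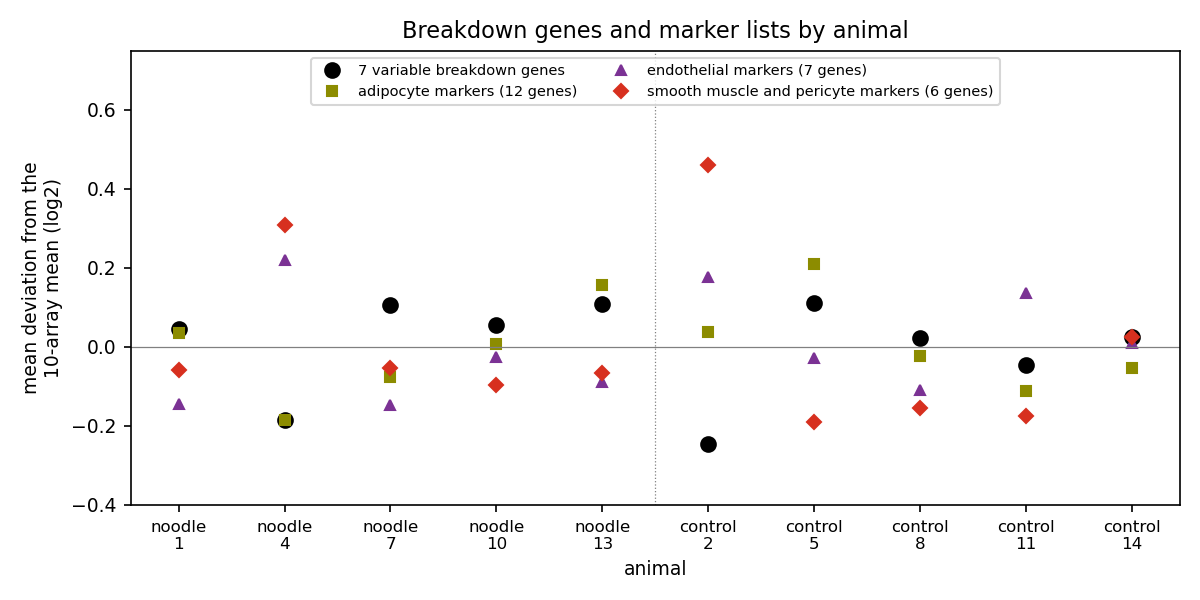
Mean deviation from the 10-array mean (vertical axis, log2) of the 7 variable breakdown genes and of 3 marker lists in each animal (horizontal axis), noodle rats left and control rats right. In noodle animal 4 and control animal 2 the breakdown genes are at -0.19 and -0.25 while smooth muscle and pericyte markers are at 0.31 and 0.46.

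As a measure of RNA quality, the values of the 3-prime control probe sets of Actb and Gapdh minus those of their 5-prime ones were averaged. This measure was 0.84 ± 0.07 in noodle rats and 0.95 ± 0.08 in control rats (SD, n = 5 each, two-sided exact permutation p = 0.0476, where the smallest possible p is 0.00794). Noodle animal 4 stood at 0.89 and control animal 2 at 0.96, inside the ranges of their groups. With this measure regressed out, the 21 correlations lay between 0.673 and 0.94 and 21 pairs passed.

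The rest of the pathway was read from a list of 28 genes for other steps, transport, control and cofactors, of which 26 were measured with 40 probe sets. Among these, 0 passed an adjusted p of 0.05 and 1 had an unadjusted p under 0.05 in limma, a flat probe set of Hadha, against 4.77% of all probe sets. Of the 15 variable probe sets, 8 were higher and 7 lower in noodle rats, with a median difference of 0.003 log2 units. The kinase Bckdk and the phosphatase Ppm1k, which switch the dehydrogenase complex off and on, had flat probe sets only, and so had the mitochondrial carrier Slc25a44 and the cytosolic aminotransferase Bcat1.

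Mmut, the methylmalonyl-CoA mutase after propionyl-CoA carboxylase, had the smallest p of the variable ones. Its probe set 1385690_at stood at 8.02, 7.75, 8.08, 7.91 and 8.13 in noodle animals 1, 4, 7, 10 and 13, against 7.75, 7.84, 7.95, 7.74 and 7.82 in control animals 2, 5, 8, 11 and 14. The groups overlapped, and the difference was 0.16 ± 0.08 log2 units (SE, limma adjusted p = 0.993). Its other variable probe set, 1393152_at, differed by 0.07 ± 0.07. With both low animals left out the differences of these probe sets were 0.20 and 0.08. Slc43a1, a plasma membrane carrier of large neutral amino acids, differed by -0.23 ± 0.19, Mccc2 by -0.09 ± 0.18 and the epimerase Mcee by -0.05 ± 0.12. Dld, the shared E3 subunit, differed by 0.06 ± 0.05, the thiolase Acat1 by 0.11 ± 0.10 at 1367763_at, the hydratase Echs1 by 0.02 ± 0.03 and Hadha, the alpha subunit of the trifunctional protein, by 0.02 ± 0.04. Without the 2 low animals Dld differed by 0.11 and Mccc2 by 0.04, and each of these genes had a limma adjusted p of 0.96 or more.

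Mccc1 and Mccc2 encode the 2 subunits of one carboxylase, and their values did not run together. Mccc2, probe set 1377060_at, stood at 8.91, 8.44, 9.23, 8.60 and 8.67 in noodle animals 1, 4, 7, 10 and 13, against 9.09, 8.67, 9.01, 9.12 and 8.44 in control animals 2, 5, 8, 11 and 14. Noodle animal 4 was low in both genes, while control animal 2 was the lowest animal for Mccc1 and the third highest for Mccc2. Over the 10 animals r was -0.147 and Spearman's rho -0.115 (permutation p = 0.685 and 0.762), and r was 0.209 without the 2 animals farthest from the median of Mccc1. In the 8 animals other than the low ones it was -0.347 (exact permutation p = 0.413). This pair was picked after its values were seen and stands outside the 21. Pccb, the partner of Pcca in propionyl-CoA carboxylase, was flat at 9.40 (1370187_at, SD 0.00897). Its r with the mean of the 7 genes was 0.781 over the 10 animals, and its r with Pcca was not computed.

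Other enzymes of the list varied with the 7 genes to different degrees. Taking for each of the 12 genes with a variable probe set the one of highest level, 11 had a positive r with the mean of the 7 genes over the 10 animals. Echs1 (0.958), Hadha (0.916) and Mmut (0.893) exceeded 0.8. Mccc2 was at -0.04. Without the 2 low animals Echs1 was at 0.767, Hadha at 0.811, Mmut at 0.829 and Mccc2 at -0.21, while Dld was at 0.751, against 0.399 over 10 animals. Pairs between the 7 genes and these 12 had a median r of 0.602, those with 10 variable genes of the citric acid cycle and pyruvate dehydrogenase 0.689, and those with 13 of fatty acid oxidation 0.586. With the 12 variable adipocyte markers the median r was 0.193, with the endothelial markers -0.664 and with the smooth muscle and pericyte markers -0.678. Without the 2 low animals the median r was 0.394 with the other pathway genes, 0.528 with citric acid cycle genes, 0.418 with fatty acid oxidation genes and 0.223 with adipocyte markers. It was -0.341 with endothelial markers and -0.02 with smooth muscle and pericyte markers. These medians are descriptions over shared arrays with no test.

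Among 1779 other genes with a variable probe set, 5 were closest to the mean of the 7 by Pearson's r over the 10 animals. They were Scp2 (0.975), a peroxisomal thiolase and sterol carrier gene, Echs1 (0.958), the complex II subunit gene Sdha (0.937), the hydroxyacid-oxoacid transhydrogenase gene Adhfe1 (0.934) and Hadha (0.916). Scp2 stood at 11.67, 11.34, 11.70, 11.64 and 11.70 in noodle animals 1, 4, 7, 10 and 13, against 11.28, 11.80, 11.69, 11.55 and 11.60 in control animals 2, 5, 8, 11 and 14. Noodle animal 4 and control animal 2 were its 2 lowest animals as well. Without them r was 0.84 for Scp2, 0.857 for Sdha, 0.811 for Hadha, 0.767 for Echs1 and 0.487 for Adhfe1. The diet differences of these 5 genes lay between 0.02 and 0.11 log2 units, each with a limma adjusted p of 0.993 or more.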

How the data were processed

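White adipose tissue of 10 rats was profiled on 1 array each, from 100 ng of total RNA per the labels' protocols. The values deposited by the authors, 1 for each probe set on each array, were taken as log2 from their range of 4.73 to 13.9. The sources used here do not give the base of the logarithm or the background correction, summarisation and normalization. A fold is therefore one on the deposited scale.

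Of 31099 probe sets, 57 array controls were left out. Of the other 31042, 20826 have 1 gene symbol in the platform annotation, 436 several and 9780 none, and 20758 of the first matched the current gene table by identifier, with 0 symbols changed. Probe sets with an SD over the 10 arrays above 0.01 were called variable. The number of arrays limits the precision.

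Noodle minus control was fitted with limma 3.58.1 in R 4.3.3 (lmFit, eBayes, two-sided) over all 31042 probe sets, with Benjamini-Hochberg adjustment and a threshold of 0.05. Correlations between genes with a variable probe set used permutation tests, exact below 10 animals. Marker lists were summarised by the mean deviation of their variable genes, 1 probe set per gene, that of the highest mean. The fits were tested on simulated data. The labels give no batch.

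All 10 genes and each of their probe sets are named, with values by animal for variable ones. From the list of other pathway genes, the 8 variable ones with the smallest p are named, and 5 genes most like the mean of the 7. The genes, lists and tests were chosen with earlier results of these data known. Alternatives were quantile normalization, centring, filters, other priors, array weights, covariates, other correlation measures and leaving out animals.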

Additional observations from a re-analysis of the deposited data

Results flagged for a closer look

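The genes and lists were examined in 60 groups of 5 animals for a single animal distant from the rest of its group. This was found 10 times, while about 1 in 20 groups, or 3, would show it by chance. In 9 of the 10 it was noodle animal 4. There Hibadh had a value of 10.03, with the remaining noodle animals at 10.25 to 10.30, and Pcca one of 8.63, against 8.95 to 9.01. The mean deviation of the 7 variable genes was -0.19, against 0.05 to 0.11. Of the other pathway genes, Acat1 (1367763_at) stood at 9.99, against 10.28 to 10.38, Echs1 at 10.13, against 10.23 to 10.27, and Hadha at 9.99, against 10.12 to 10.16. Of the marker lists, smooth muscle and pericyte markers stood at 0.31, against -0.10 to -0.05, mast cell markers at 0.28, against -0.24 to -0.15, and red blood cell markers at -0.45, against -0.12 to -0.02. In control animal 2, Bcat2 stood at 8.19, against 8.46 to 8.55 in the other controls. The genes share their animals, so these groups are not independent.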

How the results depend on the processing

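No paired analysis was possible because the labels give no number that noodle and control rats share and do not name the animals of a feeding pair. Under each of 22 alternatives of the diet comparison, 0 of the 13 probe sets passed an adjusted p of 0.05. The count of higher genes among the 7 variable ones, 6 as reported, was 4 without control animal 2 and 5 with the RNA quality covariate. It was 7 with array weights, without noodle animal 4 or without control animal 5, and 6 in the remaining alternatives. Leaving out noodle animal 4 and control animal 2 together was an alternative chosen after seeing the data. The count of probe sets with an unadjusted p under 0.05, which was 1 as reported, became 0 with quantile normalization, median centring or variable probe sets only, where 0.789%, 0.792% and 7.17% of all probe sets tested were under 0.05. It became 3 without the 2 low animals (4.92% of all) and 1 to 3 with 1 animal left out (3.65% to 6.23% of all). For the other pathway genes that count, also 1, became 0 with quantile normalization, median centring, the filter on dim probe sets, the RNA quality covariate, variable probe sets only or the exact permutation test. It became 2 with array weights or without the 2 low animals, and 0 to 3 with 1 animal left out. Directions turned for Ivd with the RNA quality covariate (-0.0837) and for Mccc1 with array weights (0.0305). With 1 animal left out, Bckdhb ranged from -0.0084 to 0.10, Ivd from -0.0029 to 0.15 and Mccc1 from -0.105 to 0.0164. Of the 21 correlated pairs, 20 as reported, 5 passed by Spearman's rank correlation, 0 without the 2 farthest animals, 0 without the 2 low animals and 8 to 21 with 1 animal left out. Without the 2 low animals r turned to -0.187 for Bckdhb and Ivd and to -0.0032 for Bckdhb and Pcca. The causes were not tested, except that the count over variable probe sets leaves out Acadsb by construction. Median centring moves the values of Acadsb by more than their own spread, so the count after it cannot speak for Acadsb. The 5 arrays per group limit the precision, as the intervals given with the differences show.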

Other observations

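The flat probe sets ordered the animals in part as the variable ones did, although their range over 10 arrays was below 0.001 log2 units. In the flat probe set of Aldh6a1, 1368814_at, control animal 2 and noodle animal 4 were the 2 lowest animals, as in the variable genes, and its r with the mean of the 7 variable genes was 0.813, or 0.221 without these 2 animals. The corresponding r was 0.633 for Bckdha 1370897_at, 0.638 and 0.615 for the probe sets of Dbt and 0.616 for Acadsb. Bckdha 1380557_at ran the other way, with an r of -0.578. Without the 2 low animals the r of Dbt 1373201_at was 0.877, and the other 4 lay between -0.352 and 0.558. These values come from the same 10 arrays and have no test. The corresponding r was not computed over all flat probe sets, so this order cannot be taken as particular to these genes.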
